A study of Mus musculus with 8 samples.

Results

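The genes described here are 10 genes of secreted matrix proteins: Sparc, Tnc, Thbs1, Thbs2, Abi3bp, Fstl1, Ltbp2, Postn, Fn1 and Vcan. They were chosen from the group values of these same 8 arrays, so their levels and differences are given as a description, with no test of them, and their calls support nothing. Each gene is read by the probe sets that map to its symbol alone. That gave 18 probe sets for 9 of the 10 genes, out of 17097 genes with a probe set of their own, and Thbs1 was not analysed here. The 9 genes also lay among the 14403 genes that were bright enough to be tested.

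RNA of sorted cells was measured on Affymetrix mouse arrays in 4 groups of 2 arrays each. The groups were Lgr5+Lrig1+ and Lgr5-negative Lrig1+ cells (spelled Lrg5-Lrig1+ in the labels) of 2 vismodegib-treated mice, and the same populations of 2 untreated mice. All 4 mice had the genotype K14-CreER/Ptch1cKO, an inducible Cre under a keratin promoter that removes the Hedgehog receptor gene Ptch1 from keratinocytes, so the untreated mice carry the deletion too and no group has normal skin. Vismodegib blocks Smoothened, the transducer that Ptch1 holds in check, and the labels give no dose, time or age. Back skin with basal cell carcinoma or drug-tolerant lesions was split with thermolysin and the epidermal side was sorted on a green fluorescent Lgr5 reporter and on surface Lrig1, with no marker against leukocytes named, so the dermal cells around the tumours were not sampled as such. Both populations of a mouse come from the same animal.

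Matricellular proteins are secreted into the matrix around cells, where they bind collagen, growth factors and cell-surface receptors and change how cells adhere, rather than building the fibres themselves. SPARC, the follistatin-like FSTL1 and LTBP2, named for the latent TGF-β binding family, bind calcium, growth factors of the TGF-β family or elastic fibres. Tenascin C, periostin and the thrombospondins appear around wounds and tumours, while fibronectin and the proteoglycan versican form the loose matrix that migrating cells use. In the hair follicle, dermal papilla and sheath cells are known sources of several of them.

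Values are log2 signals as normalised by the authors, and a difference of 1 is a doubling. Each difference is the first-named group minus the second, with the standard error of a limma fit over all 8 arrays. A gene is called where its p, adjusted by Benjamini and Hochberg over all 14403 genes, lay under 0.05. An array value under 4.85, the 25th percentile of all values, is called dim here. The levels of different probe sets are not comparable with each other.

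The sort and the drug left their marks on the arrays. Lgr5 read 9.44 and 10.03 in vismodegib Lgr5-positive cells, 5.46 and 4.83 in vismodegib Lgr5-negative cells, 10.98 and 11.00 in untreated Lgr5-positive cells, and 8.52 and 8.40 in untreated Lgr5-negative cells. The Lgr5-negative cells were thus not alike in both treatments: their Lgr5 signal was 9.94-fold lower after vismodegib (−3.31 ± 0.25, adjusted p = 0.00166). The gap between the populations was 4.59 ± 0.25 after vismodegib and 2.53 ± 0.25 in untreated mice, and the drug differences of the populations differed by 2.06 ± 0.35 (adjusted p = 0.0413). The part of this uneven gap in the population differences of other genes was not tested. The Hedgehog target Gli1 was lower after vismodegib by 11.5-fold in Lgr5-positive and 5.41-fold in Lgr5-negative cells. Which exons of Ptch1 were deleted is not given in the sources used here, and its signal therefore checks nothing about the deletion.

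The start-site regions of 5 members are shown because these genes went different ways in the sort. In all 4 mice Sparc, Fstl1 and Ltbp2 were higher in Lgr5-positive cells and Thbs2 was lower there, while Tnc turned with treatment. Not all of these differences were called, and those of Thbs2 were smaller than its drug differences. RefSeq windows of 300 bases in GRCm38.p6, all read along the gene, were at hand for 7 of the 10 members. In capitals are matches on either strand to the letters GGGCGG known as the GC box, CAGACA known as a SMAD element, TATAAA of the TATA box and CCAAT of the NF-Y box, and no 2 matches overlap.
Sparc, chr11:55420031-55420330, minus strand: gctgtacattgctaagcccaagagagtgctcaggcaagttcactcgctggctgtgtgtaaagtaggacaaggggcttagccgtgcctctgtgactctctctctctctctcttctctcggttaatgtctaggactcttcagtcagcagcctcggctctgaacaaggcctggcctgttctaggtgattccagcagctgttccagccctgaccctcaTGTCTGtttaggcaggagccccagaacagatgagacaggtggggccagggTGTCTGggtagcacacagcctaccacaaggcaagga
Fstl1, chr16:37776805-37777104, plus strand: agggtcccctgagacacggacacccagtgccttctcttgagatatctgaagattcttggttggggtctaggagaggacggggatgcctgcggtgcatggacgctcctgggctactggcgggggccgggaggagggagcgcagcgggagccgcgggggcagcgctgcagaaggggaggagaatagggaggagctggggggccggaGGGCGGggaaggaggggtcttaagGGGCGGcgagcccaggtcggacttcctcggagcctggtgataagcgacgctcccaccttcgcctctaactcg
Ltbp2, chr12:84876442-84876741, minus strand: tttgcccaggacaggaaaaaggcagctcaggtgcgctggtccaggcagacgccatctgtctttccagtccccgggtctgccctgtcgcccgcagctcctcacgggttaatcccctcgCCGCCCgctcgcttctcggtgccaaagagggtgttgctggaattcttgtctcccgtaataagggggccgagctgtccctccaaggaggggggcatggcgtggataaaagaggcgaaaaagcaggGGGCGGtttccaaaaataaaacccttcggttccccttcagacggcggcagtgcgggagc
Thbs2, chr17:14694213-14694512, minus strand: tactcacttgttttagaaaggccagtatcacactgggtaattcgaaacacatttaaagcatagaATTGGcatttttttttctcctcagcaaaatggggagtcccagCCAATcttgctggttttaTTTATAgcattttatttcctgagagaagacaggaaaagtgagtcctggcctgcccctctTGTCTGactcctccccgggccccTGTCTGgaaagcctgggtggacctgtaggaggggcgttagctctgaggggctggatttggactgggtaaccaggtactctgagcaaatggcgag
Tnc, chr4:64046966-64047265, minus strand: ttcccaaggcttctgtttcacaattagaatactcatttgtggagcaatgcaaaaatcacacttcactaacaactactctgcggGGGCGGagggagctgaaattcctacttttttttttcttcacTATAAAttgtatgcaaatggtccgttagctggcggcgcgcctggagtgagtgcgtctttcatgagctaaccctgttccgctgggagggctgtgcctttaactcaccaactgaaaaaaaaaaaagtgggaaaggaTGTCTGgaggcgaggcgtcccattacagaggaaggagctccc

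The Sparc window held the SMAD letters 36 bases before and 14 after the start site, and no other match. Fstl1 had the GC box 46 and 22 bases before the start, and Ltbp2 had it 9 and 133 bases before the start. Thbs2 had the SMAD letters 67 and 44 bases before the start, with NF-Y letters 144 and 186 bases and a TATA match 126 bases before it. In the window shown, Tnc had a GC box 167 and a TATA match 126 bases before the start, and SMAD letters 8 bases after it. Another Tnc window, not shown, overlaps this one and has a different start site. From that start the GC box lay 246 and the TATA match 205 bases before, with SMAD letters 71 bases before and 39 after. Such letters are common: of 32851 windows, 35.7% held the GC box, 21.0% the SMAD element, 13.6% the TATA box and 37.4% the NF-Y box. None of the 5 windows shown held TGANTCA (AP-1), CATTCC (TEAD) or TGGGTGGTC (GLI), which 7.81%, 14.7% and 0.253% of all windows did. The matches describe the letters only.

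**Figure D1:**
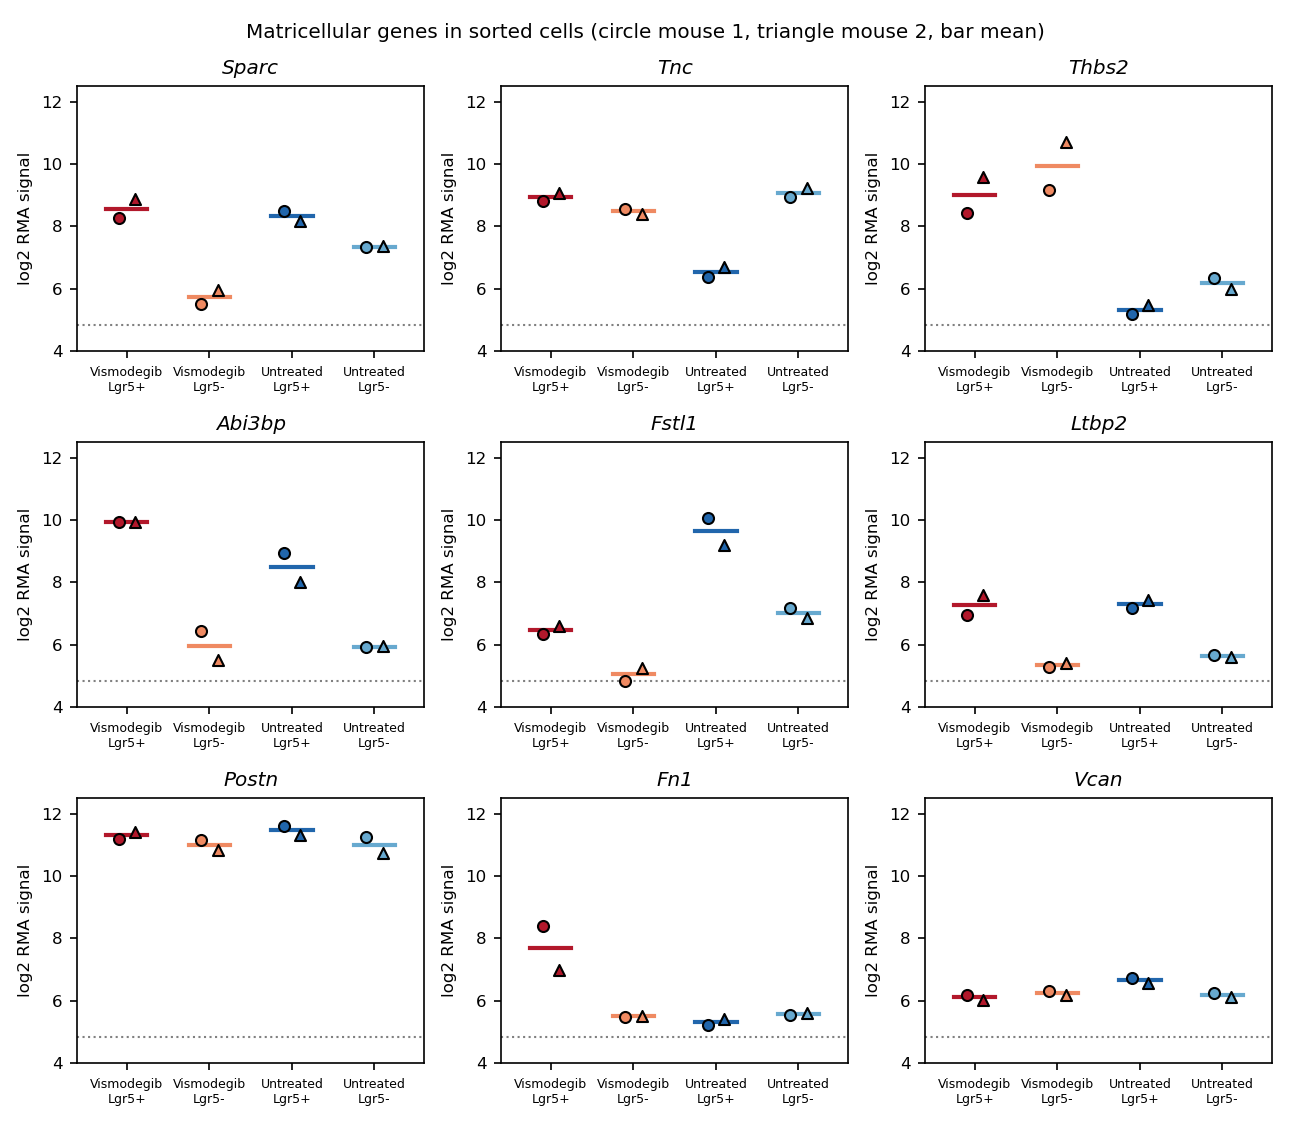
Log2 signal (vertical axes) of the 9 measured matricellular genes in the 4 groups. Circles are mouse 1, triangles mouse 2, bars the mean of 2 arrays, and the dotted line is the 4.85 below which a value is called dim. Abi3bp, Ltbp2 and Sparc sit higher in both Lgr5-positive groups, Thbs2 in both vismodegib groups, and Fn1 in the vismodegib Lgr5-positive cells.

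The working name of the set ties these genes to the Lgr5 niche, and the array values do not all run that way. In every one of the 4 mice, Sparc, Abi3bp, Fstl1, Ltbp2 and Postn had a higher signal in the Lgr5-positive than in the Lgr5-negative cells. Thbs2 was lower in the Lgr5-positive cells of all 4 mice. Tnc, Fn1 and Vcan were higher in the Lgr5-positive cells of 2 mice and lower in the other 2, with the split falling between the treatments. The set is therefore called the matricellular genes below.

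Sparc encodes a collagen- and calcium-binding glycoprotein. It read 8.26 and 8.87 in vismodegib Lgr5-positive cells, 5.52 and 5.98 in vismodegib Lgr5-negative cells, 8.50 and 8.16 in untreated Lgr5-positive cells, and 7.35 and 7.36 in untreated Lgr5-negative cells. Both Lgr5-positive groups were high and overlapped, and the vismodegib Lgr5-negative arrays were the lowest of all. After vismodegib the Lgr5-positive cells were 7.04-fold above the Lgr5-negative cells (2.82 ± 0.24), and in untreated mice 1.96-fold above (0.97 ± 0.24). The drug difference in Lgr5-negative cells was −1.61 ± 0.24 (3.05-fold lower), against 0.23 ± 0.24 in Lgr5-positive cells, so the wider gap after vismodegib came with a lower level in the Lgr5-negative arrays, where Lgr5 was lower too. In cells sorted in bulk, fewer cells that make a transcript and less of it per cell cannot be told apart. The other Sparc probe set followed the first (r = 0.98 over 8 arrays) with a gap after vismodegib of 1.52 ± 0.22, but neither this nor its other differences were called. The calls of the standing probe set in Lgr5-negative cells and in untreated mice were lost when either untreated Lgr5-negative array was left out, the first also without vismodegib Lgr5-negative replicate 1 and the second without untreated Lgr5-positive replicate 1 (−1.84 to −1.38 and 0.80 to 1.15 over the 8 fits).

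Fstl1 encodes a secreted relative of follistatin and SPARC that can modulate BMP signalling. Its signal was 6.34 and 6.61 in vismodegib Lgr5-positive cells, 4.84 and 5.27 in vismodegib Lgr5-negative cells, 10.08 and 9.20 in untreated Lgr5-positive cells, and 7.19 and 6.85 in untreated Lgr5-negative cells. No 2 groups overlapped, and even the untreated Lgr5-negative arrays lay above the treated Lgr5-positive ones. Vismodegib went with an 8.97-fold lower signal in Lgr5-positive cells (−3.16 ± 0.29) and a 3.90-fold lower one in Lgr5-negative cells (−1.96 ± 0.29). The Lgr5-positive cells were 6.16-fold above the Lgr5-negative cells in untreated mice (2.62 ± 0.29). After vismodegib the gap was 1.42 ± 0.29 and not called, though it was called with the mouse as a replicate block. The call in Lgr5-negative cells was lost without either untreated Lgr5-negative array or vismodegib Lgr5-negative replicate 1 (−2.18 to −1.75 over the 8 fits).

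The other Fstl1 probe set gave 5.14 and 4.70 in vismodegib Lgr5-positive cells, 4.65 and 4.47 in vismodegib Lgr5-negative cells, 8.51 and 7.83 in untreated Lgr5-positive cells, and 5.86 and 5.68 in untreated Lgr5-negative cells. It was dim in 3 of the 4 vismodegib arrays and showed the same order of groups. With this probe set the drug difference in Lgr5-positive cells minus that in Lgr5-negative cells was −2.05 ± 0.34, which was called when every probe set was tested. The standing probe set gave −1.20 ± 0.42, which was not.

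Ltbp2 encodes a microfibril-associated protein of the latent TGF-β binding family. Its signal was 6.97 and 7.60 in vismodegib Lgr5-positive cells, 5.29 and 5.42 in vismodegib Lgr5-negative cells, 7.19 and 7.45 in untreated Lgr5-positive cells, and 5.68 and 5.61 in untreated Lgr5-negative cells. The sort separated the arrays in both treatments, and the Lgr5-positive groups overlapped each other. The gap was 3.82-fold after vismodegib (1.93 ± 0.21) and 3.18-fold in untreated mice (1.67 ± 0.21). The drug differences were −0.03 ± 0.21 in Lgr5-positive and −0.29 ± 0.21 in Lgr5-negative cells, neither of them called. Without either untreated Lgr5-negative array or vismodegib Lgr5-negative replicate 1, the call after vismodegib was lost (1.61 to 2.25 over the 8 fits).

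Abi3bp, also named TARSH, encodes a matrix protein that binds Abi3. Its signal was 9.95 and 9.95 in vismodegib Lgr5-positive cells, 6.43 and 5.53 in vismodegib Lgr5-negative cells, 8.94 and 8.02 in untreated Lgr5-positive cells, and 5.92 and 5.96 in untreated Lgr5-negative cells. All Lgr5-positive arrays lay above all Lgr5-negative ones. The Lgr5-positive cells were 15.7-fold higher after vismodegib (3.97 ± 0.35) and 5.81-fold higher in untreated mice (2.54 ± 0.35), and both calls held in all 8 fits that left out 1 array. The Lgr5-negative groups overlapped (0.04 ± 0.35).

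In Lgr5-positive cells Abi3bp was 2.77-fold above the untreated level after vismodegib (1.47 ± 0.35), a call that held in 3 of the 8 fits. It was lost without any 1 of the untreated Lgr5-negative arrays, the vismodegib Lgr5-positive arrays or untreated Lgr5-positive replicate 2 (1.01 to 1.93), and also with no filter on dim genes and with the mean of both probe sets (1.41). By its name, the standing probe set may pick up related transcripts as well. The other one ran with it (r = 0.99 over 8 arrays), at 8.73 and 8.32 in vismodegib Lgr5-positive cells, 5.68 and 3.96 in vismodegib Lgr5-negative cells, 7.63 and 6.70 in untreated Lgr5-positive cells, and 4.41 and 4.75 in untreated Lgr5-negative cells.

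Tnc encodes tenascin C, an oligomeric glycoprotein that loosens adhesion to fibronectin and appears in wounds and tumour stroma. Its signal was 8.83 and 9.08 in vismodegib Lgr5-positive cells, 8.56 and 8.40 in vismodegib Lgr5-negative cells, 6.39 and 6.71 in untreated Lgr5-positive cells, and 8.93 and 9.22 in untreated Lgr5-negative cells. The untreated Lgr5-positive arrays stood apart below all others, and the vismodegib Lgr5-positive arrays overlapped the untreated Lgr5-negative ones. In Lgr5-positive cells the drug difference was 2.41 ± 0.17, or 5.30-fold, against −0.59 ± 0.17 in Lgr5-negative cells, which was not called. Untreated Lgr5-positive cells lay 5.73-fold below untreated Lgr5-negative cells (−2.52 ± 0.17), whereas after vismodegib the difference was 0.48 ± 0.17 and not called. The difference between the drug differences was 2.99 ± 0.24, called in the 8-array fit and lost without vismodegib Lgr5-positive replicate 1 (2.84 to 3.15 over the 8 fits). A second Tnc probe set was dim on all 8 arrays, with values between 3.68 and 4.40.

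Postn encodes periostin, a matrix protein of collagen-rich tissue that binds integrins. Its signal was 11.20 and 11.40 in vismodegib Lgr5-positive cells, 11.17 and 10.84 in vismodegib Lgr5-negative cells, 11.59 and 11.33 in untreated Lgr5-positive cells, and 11.25 and 10.74 in untreated Lgr5-negative cells. No difference of Postn was called. The drug differences were −0.16 ± 0.20 and 0.01 ± 0.20, and the population differences 0.29 ± 0.20 after vismodegib and 0.46 ± 0.20 in untreated mice. Within a mouse, the Lgr5-positive cells exceeded the Lgr5-negative cells by 0.03 to 0.58.

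Thbs2 encodes thrombospondin 2, a secreted inhibitor of new vessel growth that binds CD36, CD47 and metalloproteinases. Its signal was 8.42 and 9.60 in vismodegib Lgr5-positive cells, 9.16 and 10.71 in vismodegib Lgr5-negative cells, 5.19 and 5.48 in untreated Lgr5-positive cells, and 6.36 and 5.99 in untreated Lgr5-negative cells. Every vismodegib array lay above every untreated one. The drug difference was 12.8-fold in Lgr5-positive cells (3.67 ± 0.53) and 13.6-fold in Lgr5-negative cells (3.76 ± 0.53), and the difference between these was −0.09 ± 0.75. The vismodegib mice themselves differed, mouse 2 being above mouse 1 in both populations.

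Without either untreated Lgr5-negative array, the Thbs2 call in Lgr5-negative cells was lost (2.98 to 4.54 over the 8 fits). The population differences were −0.92 ± 0.53 after vismodegib and −0.84 ± 0.53 in untreated mice, and the untreated one was called with the mouse as a replicate block. The other Thbs2 probe set gave 7.00 and 7.63 in vismodegib Lgr5-positive cells, 8.07 and 9.06 in vismodegib Lgr5-negative cells, 4.70 and 4.87 in untreated Lgr5-positive cells, and 5.00 and 5.04 in untreated Lgr5-negative cells. Its drug differences, 2.53 and 3.54, were both called. Beside this, the 8 tested dermal fibroblast markers had a median drug difference of −0.28 in Lgr5-positive and 0.06 in Lgr5-negative cells, and of the 12 listed, 7 to 9 lay above 4.85 on each array, with Pdgfra, Lum and Dpt dim on all 8. In Lgr5-positive cells 1 of the 8, Col6a1, was called, and it was lower after vismodegib (−0.89 ± 0.20, adjusted p = 0.0307), where 4.51% of all genes were. Thy1, which is also listed as a T cell marker, had 0.90 ± 0.29 there and was not called (adjusted p = 0.0992). The part of fibroblast RNA in the Thbs2 values was not tested.

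Fn1 encodes fibronectin, the adhesive glycoprotein that integrins assemble into fibrils. It read 8.39 and 7.00 in vismodegib Lgr5-positive cells, 5.48 and 5.52 in vismodegib Lgr5-negative cells, 5.23 and 5.43 in untreated Lgr5-positive cells, and 5.55 and 5.62 in untreated Lgr5-negative cells. Both arrays of vismodegib Lgr5-positive cells lay above the other 6, which lay between 5.23 and 5.62. The drug difference in Lgr5-positive cells was 5.16-fold (2.37 ± 0.38) and held its call in all 8 fits that left out 1 array, with values of 1.67 to 3.06. In Lgr5-negative cells it was −0.08 ± 0.38. The gap to Lgr5-negative cells after vismodegib, 2.20 ± 0.38, was not called, but was with the mouse as a replicate block and without either vismodegib Lgr5-positive array (1.50 to 2.89 over the 8 fits).

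Macrophage markers rose with Fn1 in the drug comparison of Lgr5-positive cells, but did not follow it in every comparison. All 12 listed markers were called higher in Lgr5-positive cells after vismodegib, where 6.37% of all genes were, with a median difference of 2.63. Their mean log2 signal was 8.80 and 8.36 in vismodegib Lgr5-positive cells, 7.43 and 7.47 in vismodegib Lgr5-negative cells, 5.65 and 5.41 in untreated Lgr5-positive cells, and 6.45 and 6.85 in untreated Lgr5-negative cells. In each vismodegib Lgr5-positive array 12 of the 12 lay above 4.85, and in the untreated Lgr5-positive arrays 9 and 8. In Lgr5-negative cells 4 of the 12 were called higher after vismodegib (median 0.71), where 1.26% of all genes were and Fn1 had −0.08 ± 0.38. In untreated mice 5 were called lower in Lgr5-positive than in Lgr5-negative cells (median −0.39), where 10.9% of all genes were and Fn1 had −0.25 ± 0.38. Between the populations after vismodegib, 3 (Lyz2, Cd68 and Pf4) were called higher in Lgr5-positive cells and 0 lower (median 0.62). There 0.34% of all genes were called higher, and Fn1 had 2.20 ± 0.38, which was not called. The markers differed among themselves in the vismodegib Lgr5-negative cells, where Fn1 read 5.48 and 5.52. Tyrobp, an adaptor of myeloid receptors, was at 9.70 and 9.14 in vismodegib Lgr5-positive cells and at 9.31 and 8.68 in vismodegib Lgr5-negative cells, and C1qa, Ctss and C1qb were likewise high in both. Lyz2 read 11.02 and 10.93 in vismodegib Lgr5-positive cells against 8.39 and 8.45 in vismodegib Lgr5-negative cells. In the same groups Cd68 read 9.06 and 8.45 against 6.53 and 6.97, and Adgre1 6.57 and 6.07 against 5.06 and 5.55. Pf4, a chemokine of platelets and some macrophages, singled out after its values were seen, had 9.02 and 8.20 in vismodegib Lgr5-positive cells, 4.82 and 4.68 in vismodegib Lgr5-negative cells, 4.59 and 4.80 in untreated Lgr5-positive cells, and 4.68 and 5.50 in untreated Lgr5-negative cells. Outside the vismodegib Lgr5-positive arrays, Pf4 lay above 4.85 only in untreated Lgr5-negative replicate 2. The part of macrophage RNA in the Fn1 values was not tested.

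Among all tested genes, those closest to Fn1 over the 8 arrays were Slc11a1 (r = 0.99), which encodes a metal transporter of phagocytes, Igf1 (r = 0.988), a growth factor, and the chemokine Ccl9 (r = 0.983). These correlations rest on the same 8 arrays, 2 of which carry the pattern, and are a description.

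**Figure D2:**
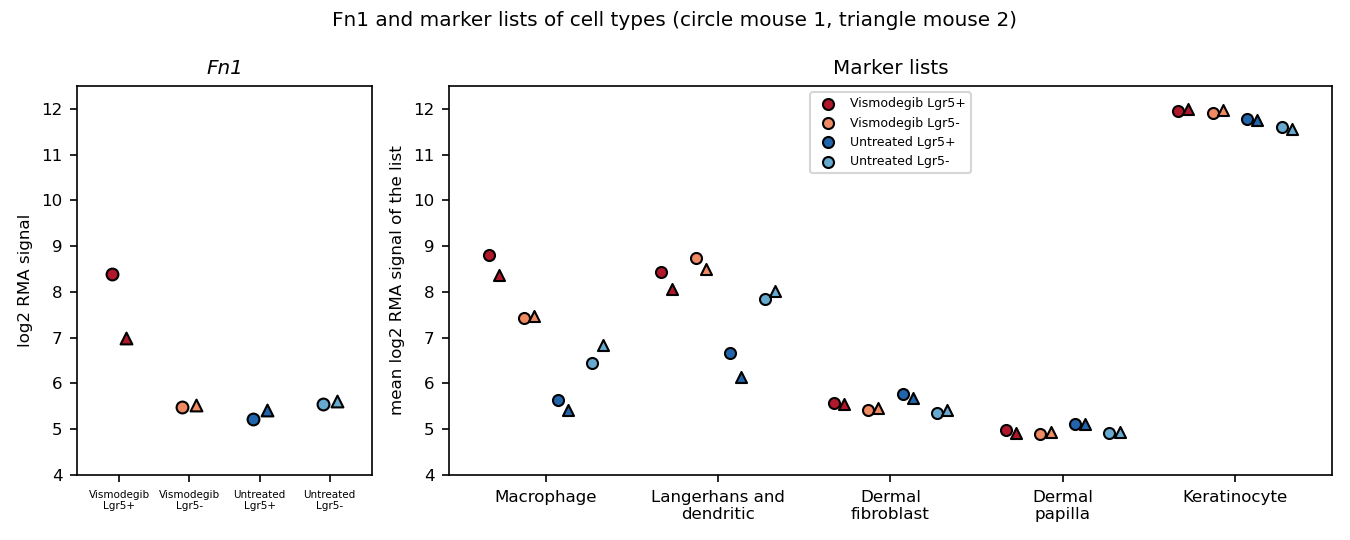
Left, log2 signal of Fn1 in the 4 groups; right, mean log2 signal per array of 5 lists of cell type markers, coloured by group, with circles for mouse 1 and triangles for mouse 2. Fn1 is high in the vismodegib Lgr5-positive arrays (8.39 and 7.00), where the macrophage list is also highest (8.80 and 8.36), while the fibroblast and dermal papilla lists stay between 4.90 and 5.76 in all arrays.

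Vcan encodes versican, a large hyaluronan-binding proteoglycan used as a marker of the dermal papilla. Its 5 probe sets did not give the same sizes. The standing one ran from 6.03 to 6.73 over all arrays, with differences of −0.55 ± 0.13 for vismodegib in Lgr5-positive cells and 0.47 ± 0.13 for the populations in untreated mice. Both were called, but held in only 2 of the 8 fits that left out 1 array, namely without either vismodegib Lgr5-negative array (−0.63 to −0.47 and 0.40 to 0.55 over the 8 fits). Both were also lost with only the arrays compared in the fit. The population call of this probe set was lost with cyclic loess and when every probe set was tested as well.

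A second Vcan probe set showed a larger contrast. It gave 5.65 and 5.56 in vismodegib Lgr5-positive cells, 5.02 and 5.14 in vismodegib Lgr5-negative cells, 7.18 and 6.79 in untreated Lgr5-positive cells, and 5.68 and 5.99 in untreated Lgr5-negative cells. The untreated Lgr5-positive arrays were the highest. The drug difference there was −1.38 ± 0.17 and the untreated population difference 1.15 ± 0.17, both called when every probe set was tested. Another Vcan probe set, above 4.85 on 2 arrays only, gave −1.25 and 1.06 for the same differences, and the other 2 were dim on all arrays.

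**Figure D3:**
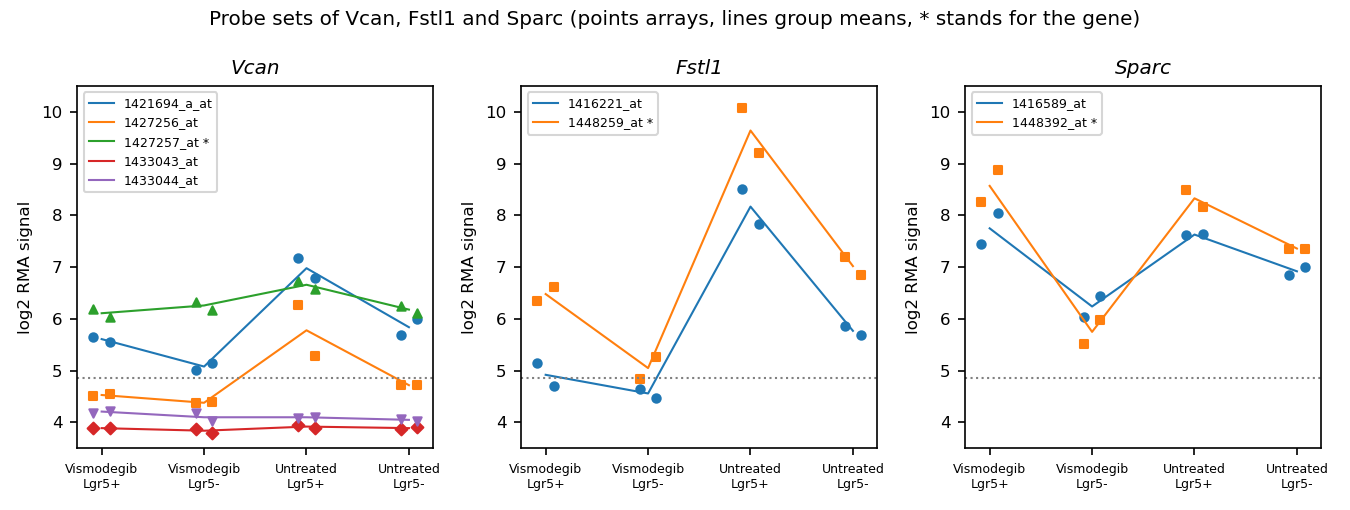
Log2 signal of every probe set of Vcan, Fstl1 and Sparc in the 4 groups; points are arrays, lines join group means, the star marks the probe set that stands for the gene, and the dotted line is at 4.85. The 2 sets of Fstl1 give the same order of groups, the 2 of Sparc differ in size of the gaps (1.52 against 2.82 after vismodegib) and cross in the vismodegib Lgr5-negative cells, and of the 5 Vcan sets 2 are flat and dim and 2 show a wider contrast than the one that stands for the gene.

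Counted over the 9 measured members, vismodegib in Lgr5-positive cells gave 4 higher (Tnc, Thbs2, Abi3bp and Fn1) and 2 lower (Fstl1 and Vcan), where 6.37% of all tested genes were called higher and 4.51% lower. In Lgr5-negative cells there were 1 higher (Thbs2) and 2 lower (Sparc and Fstl1), against 1.26% and 2.06% of all genes. Leaving out an untreated Lgr5-negative array left 0 calls there, and leaving out vismodegib Lgr5-negative replicate 1 left 1. The drug comparisons of the 2 populations use different arrays of the same mice. These counts follow from how the genes were chosen, and nothing is read from them.

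For the populations, Sparc, Abi3bp and Ltbp2 were called higher in Lgr5-positive cells after vismodegib, and no member lower, where 0.34% of all genes were called higher and 0.132% lower. With the mouse as a replicate block the count was 5, with Fn1 and Fstl1 added, and with only the 4 vismodegib arrays in the fit it was 1. In untreated mice 5 were called higher (the same 3 with Fstl1 and Vcan) and 1 lower (Tnc), against 6.21% and 10.9% of all genes. For the difference between the drug differences, Tnc alone was called, and it was higher, where 0.993% of all genes were higher and 0.41% lower. With the mouse as a replicate block that count was 3, with Sparc (1.84) and Fn1 (2.45) added.

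**Figure D4:**
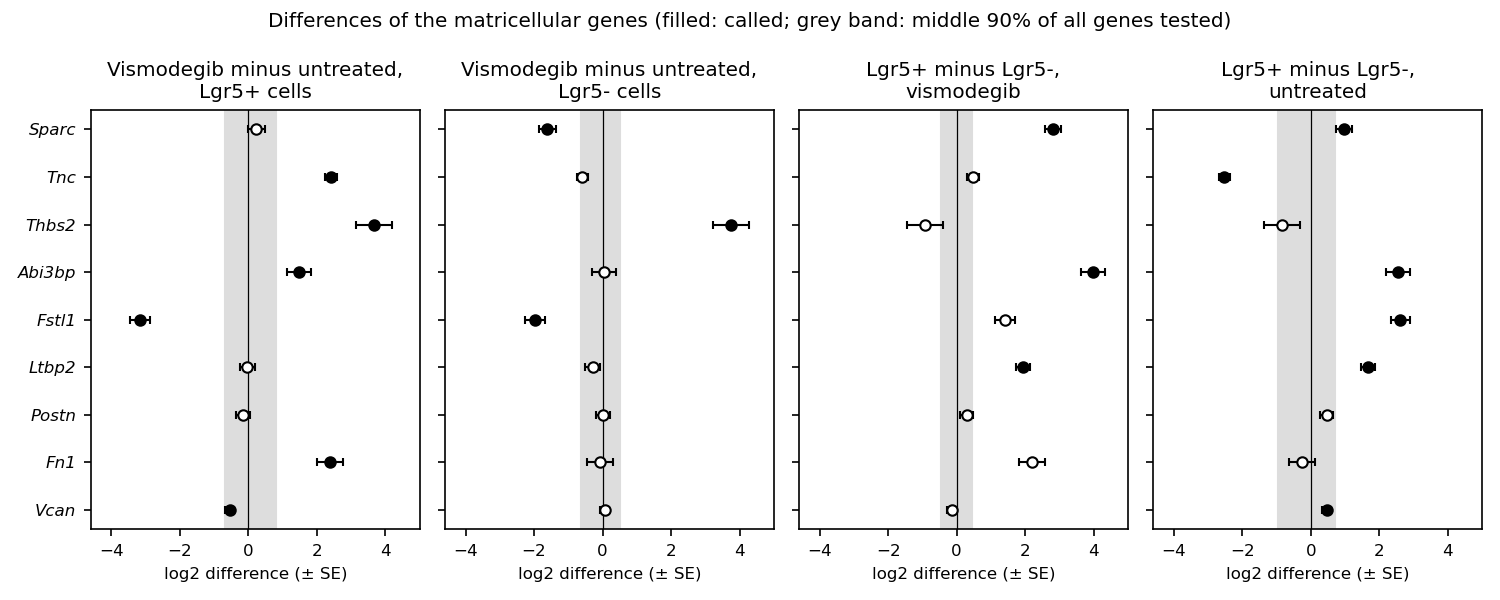
Log2 differences of the 9 measured matricellular genes with their standard errors, for vismodegib minus untreated in Lgr5-positive and in Lgr5-negative cells and for Lgr5-positive minus Lgr5-negative cells after vismodegib and in untreated mice. Filled points are called, and the grey band holds the middle 90% of all tested genes. Thbs2 lies at 3.67 and 3.76 in the drug comparisons, and Tnc at 2.41 in Lgr5-positive but at −0.59 in Lgr5-negative cells.

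Sparc, Abi3bp and Ltbp2 ran together over the 8 arrays (r = 0.80 for Sparc and Abi3bp, 0.90 for Sparc and Ltbp2, 0.89 for Abi3bp and Ltbp2). Fstl1 ran opposite to Tnc (r = −0.78) and to Thbs2 (r = −0.83). These are descriptions over 8 arrays from 4 mice. Outside the set, the 3 tested genes closest to Fstl1 were Myef2 (r = 0.992), Actn1 (0.991), which encodes an actin cross-linker, and Rai14 (0.99). For Thbs2 they were Ikzf2 (0.994), which encodes the transcription factor Helios, Ifi27 (0.981) and Ubqln4 (0.981), and for Tnc Eef1g (0.989), a translation factor gene, Tent5a (0.981) and Abcf1 (0.98).

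Other genes of the same protein families were listed by family, like all lists here with earlier results of these data known. Of the 33 listed, 25 could be tested. In untreated mice 8 of them were higher in Lgr5-positive than in Lgr5-negative cells and 0 lower, where 6.21% of all tested genes were called higher and 10.9% lower, with a median difference of 0.25 against 0.02 over all genes. The SPARC relatives Spock2 (1.74 ± 0.21, adjusted p = 0.00245), Smoc2 (1.51 ± 0.26, adjusted p = 0.00954) and Smoc1 (1.23 ± 0.23, adjusted p = 0.0115) were among them. So were Ltbp4 (1.55 ± 0.17, adjusted p = 0.00202) and Ltbp3 (1.12 ± 0.20, adjusted p = 0.00962), whose proteins hold latent TGF-β in the matrix. The fibulin gene Efemp1 is counted among the 8, but it lay above 4.85 only in the untreated Lgr5-positive arrays, at 5.94 and 6.26 against 4.35 and 4.37 in untreated Lgr5-negative cells, and passed the filter through them alone, so it is given with no p. Ccn2, a target of YAP signalling, and Thbs3 completed the 8. With the mouse as a replicate block Thbs3 was not called (adjusted p = 0.0508), and Fbln1 and Ltbp1 were. The count was 4 without untreated Lgr5-negative replicate 1 and 3 without replicate 2, and Spock2 and Ltbp4 kept their calls in all 8 fits that left out 1 array. After vismodegib, where 0.34% of all genes were called higher, Spock2 was the 1 gene called (1.70 ± 0.21, adjusted p = 0.0264), a call lost in 5 of those 8 fits, those without either vismodegib Lgr5-positive array, either untreated Lgr5-negative array or vismodegib Lgr5-negative replicate 1 (1.53 to 1.88 over the 8 fits).

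With vismodegib, 4 family genes were higher and 3 lower in Lgr5-positive cells (6.37% and 4.51% of all genes were), with a median of −0.11 against −0.01 over all genes. Fst, which encodes the activin inhibitor follistatin, rose to 11.45 and 11.70 in vismodegib Lgr5-positive cells against 9.49 and 9.73 in untreated ones (1.97 ± 0.18, adjusted p = 0.000847). Fbln7, a fibulin gene, rose by 1.62 ± 0.25 (adjusted p = 0.00725), and Tnxb, the tenascin X gene, by 1.86 ± 0.39 (adjusted p = 0.0235), and the TGF-β-induced Tgfbi by 0.69 ± 0.15 (adjusted p = 0.0259). Fbln1 (−1.40 ± 0.33, adjusted p = 0.0343) and Smoc1 (−1.33 ± 0.23, adjusted p = 0.0109) fell. Efemp1, counted as the other lower gene, read 4.39 and 4.26 in vismodegib Lgr5-positive cells, below 4.85, against 5.94 and 6.26 in untreated ones, through which alone it passed the filter. The count of 7 was 3 without vismodegib Lgr5-positive replicate 1, and 4 without either untreated Lgr5-negative array or untreated Lgr5-positive replicate 2. Fst and Fbln7 kept their calls in all 8 fits.

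In Lgr5-negative cells Fst (1.10 ± 0.18, adjusted p = 0.0241) and Ltbp4 (0.85 ± 0.17, adjusted p = 0.0471) were the 2 family genes called, both higher, where 1.26% of all genes were, with a list median of 0.15 against 0 over all genes. The Ltbp4 call held in 0 of the 8 fits that left out 1 array (0.66 to 1.04) and was also lost with no filter, with every probe set tested, with only the arrays compared and with the mouse number as a block. The Fst call was lost without either untreated Lgr5-negative array or vismodegib Lgr5-negative replicate 2 (0.89 to 1.31 over the 8 fits). For the difference between the drug differences Efemp1 was the 1 family gene called (−1.93), but it was dim in 3 of the 4 groups, so no p is given.

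**Figure D5:**
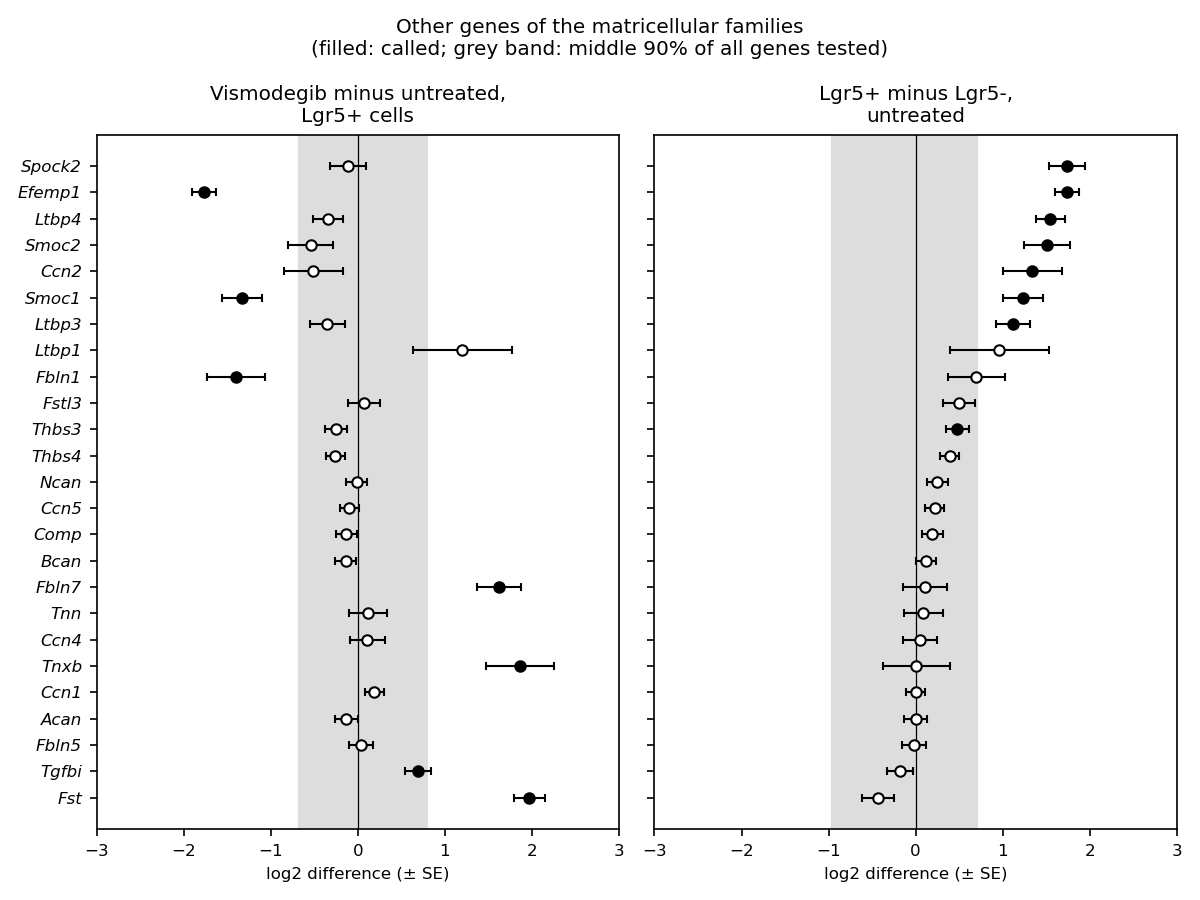
Log2 differences with standard errors of the 25 tested family genes, for vismodegib minus untreated in Lgr5-positive cells (left) and Lgr5-positive minus Lgr5-negative cells in untreated mice (right), in order of the values on the right. Filled points are called and the grey band holds the middle 90% of all tested genes. In untreated mice the 8 called genes all lie to the right of 0, and Spock2 lies at 1.74 there; Efemp1 is plotted from dim values in every group but the untreated Lgr5-positive one.

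Of 20 tested genes of receptors for these proteins, 1 rose with vismodegib in Lgr5-positive cells and 1 fell in Lgr5-negative cells, where 6.37% of all genes were called higher in the first and 2.06% lower in the second, so that these shares are near the background. Both calls were Stab1, a scavenger receptor of macrophages and vessel lining that takes up SPARC, which read 7.38 and 7.25 in vismodegib Lgr5-positive cells, 6.79 and 6.94 in vismodegib Lgr5-negative cells, 6.79 and 6.61 in untreated Lgr5-positive cells, and 7.70 and 7.64 in untreated Lgr5-negative cells. Its drug differences were 0.62 ± 0.12 (adjusted p = 0.021) and −0.80 ± 0.12 (adjusted p = 0.02), and their difference was 1.42 ± 0.18 (adjusted p = 0.0171). The first call was lost without either vismodegib Lgr5-positive array or untreated Lgr5-positive replicate 2 (0.53 to 0.71 over the 8 fits), and the second without either untreated Lgr5-negative array or vismodegib Lgr5-negative replicate 1 (−0.88 to −0.73). The third held in 4 of the 8 fits and was lost without either vismodegib Lgr5-positive or either untreated Lgr5-negative array (1.33 to 1.51). The macrophage list had a median drug difference of 2.63 in Lgr5-positive and 0.71 in Lgr5-negative cells. It was mixed in Lgr5-negative cells, where Cd68 had −0.37 ± 0.25 and Pf4 −0.34 ± 0.32, neither of them called. There 4 of the 12 markers were called higher, where 1.26% of all genes were. The part of macrophage RNA in the Stab1 values was not tested.

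In untreated mice 3 receptor genes were higher in Lgr5-positive cells and 2 lower (6.21% and 10.9% of all genes were), with a median difference of 0.12 against 0.02 over all genes. Itgb6, the chain of an integrin of activated keratinocytes that binds tenascin and fibronectin and releases active TGF-β, was 2.67-fold lower (−1.41 ± 0.17, adjusted p = 0.0024), at 7.47 and 7.28 in untreated Lgr5-positive cells against 8.90 and 8.68 in untreated Lgr5-negative cells. Stab1 was also lower (−0.97 ± 0.12, adjusted p = 0.00319). Both calls held in all 8 fits that left out 1 array. The 3 higher genes were Sdc4, a heparan sulfate co-receptor for fibronectin, Egfr and Itga3, whose calls held in 5, 2 and 2 of those fits, and Itga3 was not called with the mouse as a replicate block (adjusted p = 0.0753).

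Among 11 tested enzymes of the matrix and their inhibitors, 2 rose and 2 fell with vismodegib in Lgr5-positive cells, where 6.37% of all genes were called higher and 4.51% lower. Adamts1, a protease that cuts versican, fell to 9.24 and 9.12 in vismodegib Lgr5-positive cells against 11.02 and 10.64 in untreated ones (−1.65 ± 0.18, adjusted p = 0.00178). Mmp14, a membrane protease, fell as well (−0.83 ± 0.16, adjusted p = 0.0194). Adamts9, another versican-cutting protease, rose by 1.69 ± 0.27 (adjusted p = 0.00885), and the gelatinase gene Mmp2 by 0.97 ± 0.16 (adjusted p = 0.00934). Adamts1 kept its call in all 8 fits that left out 1 array, while Adamts9 lost it without vismodegib Lgr5-positive replicate 2 (1.26 to 2.12 over the 8 fits), Mmp2 without replicate 1 of that group (0.83 to 1.11), and Mmp14 without either of them or untreated Lgr5-positive replicate 2 (−0.99 to −0.66). Mmp2 read 7.80 and 7.51 in vismodegib Lgr5-positive cells, 8.27 and 7.91 in vismodegib Lgr5-negative cells, 6.73 and 6.64 in untreated Lgr5-positive cells, and 8.95 and 9.02 in untreated Lgr5-negative cells. It fell with the drug in Lgr5-negative cells (−0.90 ± 0.16, adjusted p = 0.0324), a call lost without either untreated Lgr5-negative array or vismodegib Lgr5-negative replicate 2 (−1.08 to −0.72 over the 8 fits). In untreated mice it was 4.91-fold lower in Lgr5-positive cells (−2.30 ± 0.16, adjusted p = 0.000544), and its drug difference differed between the populations by 1.87 ± 0.22 (adjusted p = 0.0171), which was lost without vismodegib Lgr5-positive replicate 1 or either untreated Lgr5-negative array (1.68 to 2.05 over the 8 fits). Timp2, an inhibitor of metalloproteinases, was higher in untreated Lgr5-positive cells (1.54 ± 0.19, adjusted p = 0.00286). Adamts1 also fell with the drug in Lgr5-negative cells (−0.93 ± 0.18, adjusted p = 0.0425), a call that held in 3 of the 8 fits (−1.15 to −0.72).

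Of 11 tested matrix partners, 2 rose and 1 fell with vismodegib in Lgr5-positive cells, against the same shares of all genes. Fbn2, which encodes fibrillin 2 of the microfibrils to which LTBP proteins attach, read 8.40 and 8.51 in vismodegib Lgr5-positive cells, 9.84 and 9.76 in vismodegib Lgr5-negative cells, 7.15 and 7.34 in untreated Lgr5-positive cells, and 8.99 and 8.49 in untreated Lgr5-negative cells. It rose with the drug in Lgr5-positive cells (1.21 ± 0.18, adjusted p = 0.0059) and was lower in untreated Lgr5-positive than Lgr5-negative cells (−1.50 ± 0.18, adjusted p = 0.00245), opposite in sign to Ltbp2. Both calls held in all 8 fits. Fbn2 also rose in Lgr5-negative cells (1.05 ± 0.18, adjusted p = 0.0262), a call that held in 3 of the 8 fits (0.80 to 1.31). After vismodegib it was again lower in Lgr5-positive than Lgr5-negative cells (−1.34 ± 0.18, adjusted p = 0.0327), which held in 4 (−1.40 to −1.28). Of all genes, 1.26% were called higher in the first and 0.132% lower in the second.

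Of 17 tested genes of the TGF-β axis, 3 rose and 1 fell with vismodegib in Lgr5-positive cells (6.37% and 4.51% of all genes did), and 2 fell in Lgr5-negative cells (2.06% of all genes did). The ligand Tgfb3 fell to 7.51 and 7.88 in vismodegib Lgr5-positive cells against 10.84 and 10.34 in untreated ones (−2.89 ± 0.21, adjusted p = 0.000346), and the ligand Tgfb2 rose to 8.78 and 9.27 in vismodegib Lgr5-positive cells against 7.45 and 7.45 in untreated ones (1.58 ± 0.24, adjusted p = 0.00653). Both calls held in all 8 fits. Tgfb3 also fell in Lgr5-negative cells (−1.46 ± 0.21, adjusted p = 0.0146), a call lost without either untreated Lgr5-negative array or vismodegib Lgr5-negative replicate 1 (−1.60 to −1.32 over the 8 fits). Inhba, the activin A subunit that follistatin binds, rose by 1.50 ± 0.29 in Lgr5-positive cells (adjusted p = 0.0177) and fell by 1.80 on the log2 scale in Lgr5-negative cells (adjusted p = 0.023). The first call was lost without either vismodegib Lgr5-positive array or untreated Lgr5-positive replicate 2 (1.38 to 1.62), and the second without either untreated Lgr5-negative array (−2.30 to −1.30). The difference between these was 3.30 ± 0.41 (adjusted p = 0.0171) and held in 4 of the 8 fits, being lost without either vismodegib Lgr5-positive or either untreated Lgr5-negative array (2.80 to 3.80).

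Dermal fibroblast markers averaged 5.58 and 5.55 in vismodegib Lgr5-positive cells, 5.42 and 5.46 in vismodegib Lgr5-negative cells, 5.76 and 5.68 in untreated Lgr5-positive cells, and 5.36 and 5.43 in untreated Lgr5-negative cells. Of 8 tested, Col1a1 (0.88 ± 0.17, adjusted p = 0.0147) and Col6a1 (2.09 ± 0.20, adjusted p = 0.00126) were higher in untreated Lgr5-positive cells, as Sparc and Fstl1 were. Thy1 was lower, and of all genes 6.21% were called higher there and 10.9% lower. Col6a1 read 7.02 and 6.41 in untreated Lgr5-positive cells, and was dim in untreated Lgr5-negative cells (4.56 and 4.68). Of the dermal papilla markers, 5 of 9 lay above 4.85 on each array, Corin, Sox2, Prom1 and Hey2 were dim on all 8, and the list averaged between 4.90 and 5.12. Of 5 tested, Crabp1 (0.58 ± 0.12, adjusted p = 0.0159) and Trps1 (0.74 ± 0.20, adjusted p = 0.0428) were higher in untreated Lgr5-positive than Lgr5-negative cells, as Sparc, Fstl1 and Vcan were. The share of all genes called higher there was 6.21%. Crabp1 was near 4.85, at 5.57 and 5.51 against 4.91 and 5.01. It fell with vismodegib in Lgr5-positive cells (−0.58 ± 0.12, adjusted p = 0.0206), where 4.51% of all genes did. Keratinocyte markers averaged between 11.56 and 12.00 on all arrays, but single markers differed. Krt15 rose with vismodegib in Lgr5-negative cells (2.15 ± 0.17, adjusted p = 0.00185), and its drug differences differed by −1.73 ± 0.24 (adjusted p = 0.0239). In untreated Lgr5-positive cells Krt15 was higher (1.65 ± 0.17, adjusted p = 0.00163) and Cdh1 lower (−0.65 ± 0.11, adjusted p = 0.00754). Cdh1 rose with vismodegib in Lgr5-positive cells (0.56 ± 0.11, adjusted p = 0.016). Langerhans and dendritic cell markers averaged 8.43 and 8.07 in vismodegib Lgr5-positive cells, 8.75 and 8.50 in vismodegib Lgr5-negative cells, 6.67 and 6.15 in untreated Lgr5-positive cells, and 7.85 and 8.01 in untreated Lgr5-negative cells. The part of these cells in the values of the matricellular genes was not tested.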

How the data were processed

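The authors deposited log2 signals made with RMA from Affymetrix arrays, per the submitters' processing notes, which give no version. RMA subtracts background, equalises the distribution of all arrays and sums each probe set up, so differences are relative to the average array. The labels' protocols name amplified cDNA. Values were used as deposited, and array medians lay between 6.13 and 6.20. With 8 arrays, their number limits the precision.

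The table held 45141 probe sets, of which 28898 mapped to 1 gene symbol, for 17097 genes. Each gene was represented by its brightest probe set, taken by the mean of all 8 arrays, and 14403 genes passed the filter of 4.85 (the 25th percentile) in 2 or more arrays. The two-sided tests used lmFit and eBayes of limma 3.58.1 (R 4.3.3), with 4 group means fitted to all 8 arrays and 4 residual and 3.53 prior degrees of freedom. The Benjamini and Hochberg adjustment ran over all 14403 genes. The procedure was tested on simulated data. Probe set names come from GEO's platform annotation, and promoter windows come from RefSeq.

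The members and gene lists were chosen with earlier results of these data known. The text names all members with every probe set, up to 4 called genes in each direction from each list and comparison (part of these is given), and the 3 tested genes most like a member by Pearson r. Of the listed genes, 10 had no probe set of their own and were not analysed here.

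Deviations from group means of the 2 arrays of a mouse correlated at 0.211 in the vismodegib mice and 0.142 in the untreated mice over 14403 genes. The titles tie both populations to 1 mouse, so the mouse pairs them. Mouse numbers across treatments are different animals. The alternatives tried were to drop the filter or raise it to the median, every probe set or their mean, cyclic loess, an intensity trend, only the arrays compared, the mouse as a fixed or random replicate block, the mouse number as a block, and leaving out each array.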

Additional observations from a re-analysis of the deposited data

Results flagged for a closer look

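Of the matricellular genes and the genes of the family, receptor, partner, enzyme and TGF-β lists named by the rule, 5 had vismodegib differences that differed between the populations by a test of that difference (limma interaction term). Over all genes, 0.993% were called higher and 0.41% lower for this term, Lgr5 and 5 of the 12 macrophage markers among them. Tnc had 2.99 ± 0.24, given with no p since it is a member chosen from these arrays. Inhba had 3.30 (adjusted p = 0.0171), Mmp2 1.87 (adjusted p = 0.0171) and Stab1 1.42 (adjusted p = 0.0171). Efemp1 had −1.93, but it was dim in 3 of the 4 groups and passed the filter only through the untreated Lgr5-positive arrays, so its value is a description. The call of Efemp1 was lost without vismodegib Lgr5-positive replicate 1 or untreated Lgr5-negative replicate 2 (−2.09 to −1.77 over the 8 fits). For the other genes the arrays behind each call are named with its values above. A positive value means a higher drug difference in Lgr5-positive than in Lgr5-negative cells. Groups of 2 arrays are too small for a check of single outlying arrays.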

How the results depend on the processing

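No value changed sign while called. Of 396 member values under other settings, 376 kept their side of the threshold, 8 lost and 12 gained a call, and of 360 values with 1 array left out 325 kept their side, 32 lost and 3 gained a call. For the other named genes the counts were 1316, 26 and 12 of 1354, and 1101, 132 and 7 of 1240. Among all of these, 67 values that were not called changed sign, such as the drug difference of Ltbp2 in Lgr5-positive cells (−0.35 to 0.29 with 1 array left out).

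Leaving out 1 array, the members called numbered 0 to 3 for vismodegib in Lgr5-negative cells and 0 to 2 for the difference of drug differences. The family genes called numbered 3 to 7 for vismodegib in Lgr5-positive cells and 0 to 2 in Lgr5-negative cells, 0 to 1 and 3 to 8 between populations after vismodegib and in untreated mice, and 0 to 2 for the difference of drug differences. With fewer arrays the fit has fewer degrees of freedom.

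Between populations after vismodegib, 3 members were called, against 1 with only the arrays compared (Abi3bp) and 5 with the mouse as a replicate block. For the difference of drug differences 1 member was called, against 2 with a filter at the median, cyclic loess, an intensity trend or a random replicate block (each adding Sparc), 2 with every probe set (adding Fstl1) and 3 with the replicate block of the mouse. Family genes called for vismodegib in Lgr5-negative cells numbered 2, against 1 with no filter, 0 with only the arrays compared and 1 with the mouse number as a replicate block. For the populations after vismodegib the count was 1, against 0 with only the arrays compared, and for the difference of drug differences 1, against 0 with a filter at the median, under which Efemp1 was not tested. Other causes were not tested. Genes near 4.85 are limited by their low signal.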
